A study of Mus musculus with 15 samples.

Results

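The genes described here are the olfactory receptor genes of mouse chromosomes 9 and 11. They were chosen as the protein-coding genes of the GRCm38 RefSeq annotation whose symbols begin with Olfr, and 213 genes were found, of 20665 protein-coding genes on the autosomes and of 1104 autosomal Olfr genes. Of these, 130 lie on chromosome 9 and 83 on chromosome 11. Each gene was taken with 5 kb on each side, called its window below, because the gene spans are short, with a median of 948 bp and a range from 918 to 28487 bp. A gene was called touched by a mark when at least 1 bp of its window lay in a called interval. Neighbouring genes share windows and intervals, since 54 genes had another receptor gene within 10 kb and the 213 windows join into 184 stretches, so the genes are not independent replicates.

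Olfactory receptors are odorant-binding G protein-coupled receptors that are made in olfactory sensory neurons of the nose. Their genes have compact coding exons and stand in large tandem clusters, and a mature neuron expresses a single receptor allele while the rest of the family is kept in silent chromatin. Trimethylation of lysine 27 of histone H3 (H3K27me3) is placed by the Polycomb complex PRC2 at silent genes, H3K4me3 marks active promoters, H3K9ac and H3K27ac mark active promoters and enhancers, and H3K36me2 covers broad stretches between and within active genes. ATAC-seq marks DNA that is open to a transposase.

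The cells were EL4, a T lymphocyte lymphoma line derived from C57BL/6N mice, grown without treatment and without genetic change. No group of cells is thus a control for another, and the input DNA is the control for the ChIP-seq calls. Chromatin was immunoprecipitated with antibodies to H3K4me3, H3K9ac, H3K27ac, H3K27me3 and H3K36me2, and open chromatin was mapped by ATAC-seq, with 2 replicates each, which the study describes as technical. The data used here are the 12 resulting lists of intervals. Of the 15 samples of the series, the pair of RNA-seq libraries plays no part in them. The input entered only as the authors' control in calling the ChIP-seq lists. The lists give positions without scores or read counts, so the depth behind an interval is unknown and no expression of any receptor gene is reported. The lists held between 17519 intervals (ATAC-seq replicate 1) and 46015 intervals (H3K27me3 replicate 1), and the H3K27me3 lists covered 259 and 297 Mb. As a check of the cell type, the T lineage genes Cd3e, Cd3d, Cd3g, Thy1, Ets1, Ikzf1 and Tcf7 were touched by H3K4me3, H3K9ac, H3K27ac and H3K36me2 in both replicates, and also by ATAC-seq in both, except Cd3e, which ATAC-seq touched in replicate 1 only.

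H3K27me3 lay at most of the 213 receptor genes and the other 5 sets at very few. H3K27me3 touched 180 genes in replicate 1 and 169 in replicate 2, or 84.5 and 79.3% (81.9% ± 3.65, SD, n = 2), where it touched 25.5 and 25.3% of all autosomal protein-coding genes. It touched 159 genes in both replicates, or 74.6%, beside 21.3% of all genes, and 190 genes in either. Replicate 1 alone touched 21 genes, replicate 2 alone 10, and 23 genes were touched in neither.

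The 3 marks of active chromatin were nearly absent from the receptor genes. H3K4me3 touched 4 genes in each replicate (1.88% ± 0, SD, n = 2), where it touched 55.8 and 55.5% of all genes, and the same 4 in both, beside 55.3%. H3K9ac touched 2 genes in each replicate (0.939% ± 0, SD, n = 2), beside 54.4% of all genes in each list, and the same 2 in both, beside 54%. H3K27ac touched 3 genes in replicate 1 and 4 in replicate 2 (1.64% ± 0.332, SD, n = 2), beside 55.6 and 55.7% of all genes, and 2 of the 5 receptor genes involved were touched in both replicates, beside 55.2%.

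H3K36me2 touched 2 and 3 receptor genes (1.17% ± 0.332, SD, n = 2), where it touched 55.4% of all genes in each list, and 2 in both, beside 51.8%. ATAC-seq touched 3 receptor genes in each replicate (1.41% ± 0, SD, n = 2), beside 52.2 and 53.5% of all genes, and the same 3 in both, beside 50.8%. H3K27me3 and H3K36me2 were the broad marks called with the same tool, and the share of receptor genes with H3K27me3 was higher by 80.8 percentage points (83.6 in replicate 1 and 77.9 in replicate 2). In an exact two-sided permutation test over the 2 libraries of each mark, p was 0.333, which is the smallest value this design allows.

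**Figure D1:**
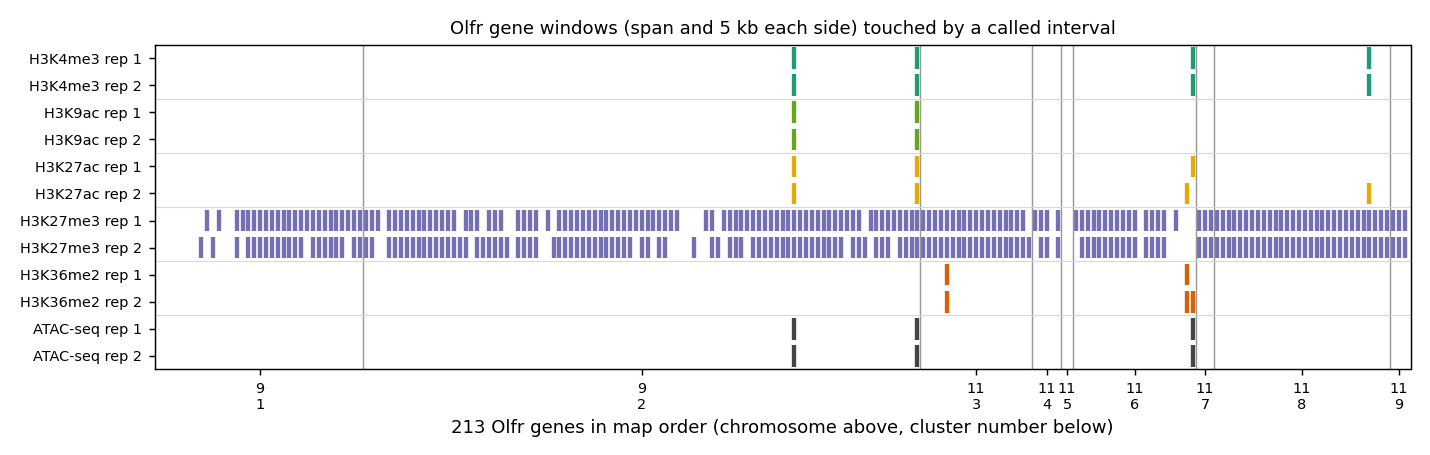
Each column is 1 of the 213 Olfr genes in map order, with vertical lines between the 9 clusters, and each row is a replicate list. A coloured bar means that the window (gene span and 5 kb on each side) is touched by at least 1 interval of that list. Both H3K27me3 rows are filled for 180 and 169 genes, and the 10 other rows hold between 2 and 4 bars each.

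To tell H3K27me3 from a mere lack of intervals, each gene was put in a class by the merged intervals of both replicates. H3K27me3 without any of the other 5 sets was found at 186 of 213 receptor genes, 87.3% (95% exact binomial interval 82.1 to 91.5%, counting error over genes only), where 17.1% of all autosomal genes were in this class. The binomial interval treats the genes as independent, which they are not. The share was 77.5% without replicate 1, 82.6% without replicate 2 and 69.5% with base pairs called in both replicates. No interval of any set was found at 21 receptor genes, 9.86% (interval 6.21 to 14.7%), where 16% of all genes had none. Among genes with a span of up to 20 kb, 22.9% had none. Among the other protein-coding genes of chromosomes 9 and 11 only 5.51% had none, so the direction depends on the background. The share of receptor genes with none was 19.7% without replicate 1, 27.7% with base pairs called in both replicates and 27.2% with no flank, and the share of all genes was not recomputed under these choices. H3K27me3 together with another set was found at 4 receptor genes, beside 12.3% of all genes, and another set without H3K27me3 at 2, beside 54.5% of all genes.

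Genes that lack the 5 other sets give a further background, which was added after the values were seen. Of the 207 receptor genes without H3K4me3, H3K9ac, H3K27ac, H3K36me2 and ATAC-seq, 89.9% had H3K27me3, and 74.9% had it in both replicates. Of all 6854 autosomal genes without these 5 sets, 51.7% had H3K27me3, and of the 4599 such genes with a span of up to 20 kb, 44.8% did. Of the 603 other genes without the 5 sets on chromosomes 9 and 11, 76.3% had H3K27me3. In both replicates, the shares were 40.5% for all such genes, 32.5% for the short ones and 63.8% for the others on chromosomes 9 and 11. H3K27me3 at otherwise unmarked genes was thus frequent on these chromosomes outside the receptor family as well. The shares come from the same libraries and were not tested against each other.

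Receptor genes elsewhere are given for comparison, by shares that were not tested. The 891 Olfr genes on other autosomes were touched by H3K27me3 at 32.6% ± 1.19 (SD, n = 2), and 535 of them, 60.0%, had no interval of any set. Of these 891 genes, 287 are on chromosome 2 and 239 on chromosome 7, where the share was lowest, and Olfr genes on several other autosomes had higher shares than those on chromosome 9, as given by chromosome below. The 352 Vmn1r and Vmn2r genes, which code for the pheromone receptors of the vomeronasal organ, were touched at 14.9% ± 0.201 (SD, n = 2), and 73.0% had no interval. In the other 5 sets, the means of the 3 receptor groups lay between 0.337 and 6.68%.

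**Figure D2:**
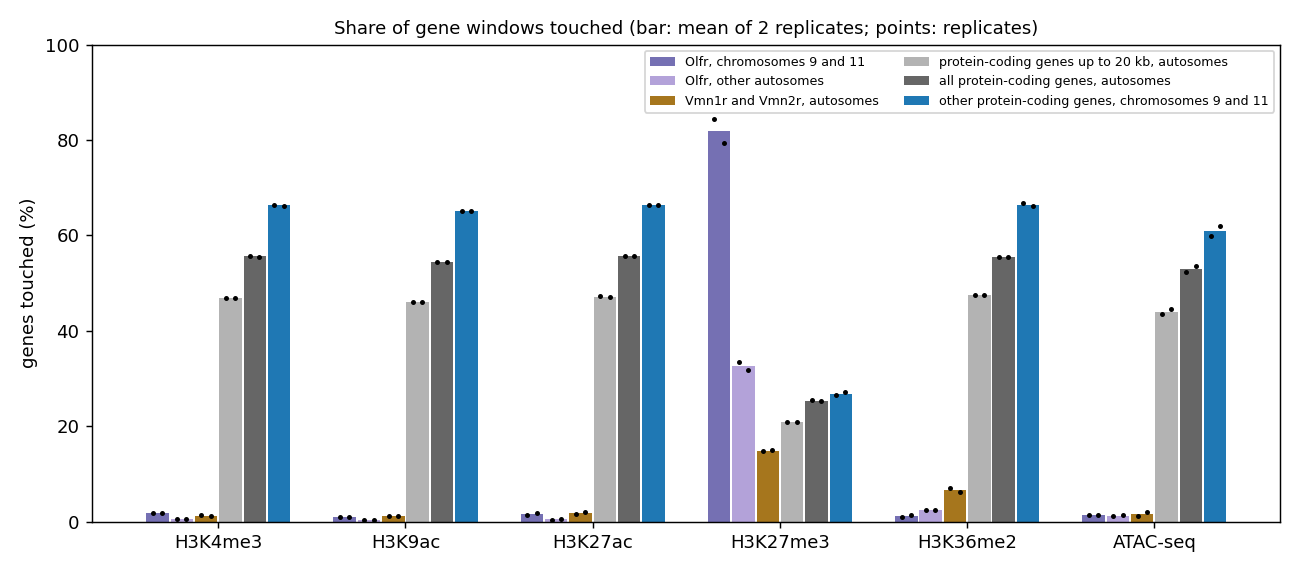
Share of gene windows (percent, linear axis from 0) touched by each of the 6 sets in 6 groups of genes. Bars are means of 2 replicates and points are the replicates. The Olfr genes of chromosomes 9 and 11 reach 81.9% for H3K27me3 and stay under 2% for every other set, and the Olfr genes of other autosomes reach 32.6% for H3K27me3.

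By chromosome, the Olfr genes of chromosome 11 were touched by H3K27me3 at a mean of 88.0% (89.2 and 86.7% in the replicates) and those of chromosome 9 at 78.1% (81.5 and 74.6%). Among the 16 autosomes with Olfr genes, chromosome 11 ranked 2 and chromosome 9 ranked 7. The highest share, 100%, was on chromosome 15 with 9 genes. The lowest were 10.3% on chromosome 7 with 239 genes and 16.9% on chromosome 2 with 287 genes, and there the other protein-coding genes of the same chromosome had H3K27me3 more often than the Olfr genes. On chromosomes 9 and 11 the other protein-coding genes were touched at 26.8% ± 0.463 (SD, n = 2).

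**Figure D3:**
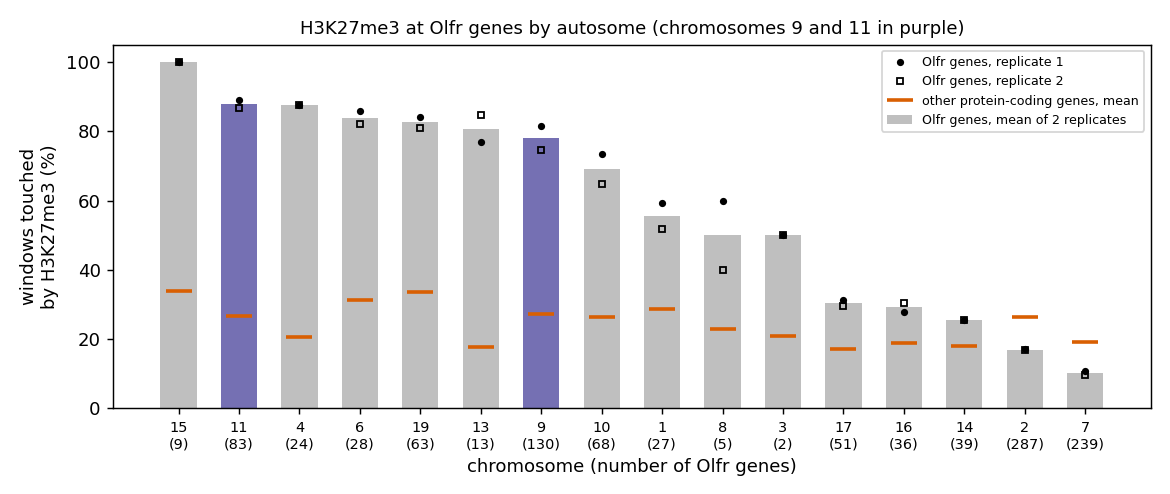
Share of Olfr windows touched by H3K27me3 (percent) on each of the 16 autosomes that hold Olfr genes, in falling order, with the number of Olfr genes in parentheses. Bars are means, points and squares are replicates 1 and 2, and the orange line is the mean of all other protein-coding genes of that chromosome. Chromosomes 11 and 9 (purple) stand at 88.0 and 78.1%, and chromosomes 2 and 7, with the most Olfr genes, are the ones whose Olfr bar lies below the orange line.

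The sequence just before the start of 4 receptor genes is printed here because these genes stand for the different states described below. Each line gives the 250 bases upstream of the RefSeq start, 5′ to 3′ on the strand of the gene, from the RefSeq promoters of GRCm38, with CpG dinucleotides in capitals. Olfr59 (chr11:74283486-74283735, plus strand) had an H3K4me3 interval inside the gene, Olfr160 (chr9:37712281-37712530, minus strand) lay wholly in H3K27me3, Olfr24 (chr9:18755634-18755883, minus strand) had no interval of any set, and Olfr976 (chr9:39961045-39961294, minus strand) had the most CpG among the 181 genes with a promoter entry, 8 in the longer promoter of 250 bases before and 50 after the start, of which 5 lie in the printed stretch.
Olfr59: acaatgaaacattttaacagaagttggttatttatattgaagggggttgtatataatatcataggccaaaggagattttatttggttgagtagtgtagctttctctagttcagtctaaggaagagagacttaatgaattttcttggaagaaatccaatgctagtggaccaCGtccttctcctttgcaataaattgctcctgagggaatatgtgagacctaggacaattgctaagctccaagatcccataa
Olfr160: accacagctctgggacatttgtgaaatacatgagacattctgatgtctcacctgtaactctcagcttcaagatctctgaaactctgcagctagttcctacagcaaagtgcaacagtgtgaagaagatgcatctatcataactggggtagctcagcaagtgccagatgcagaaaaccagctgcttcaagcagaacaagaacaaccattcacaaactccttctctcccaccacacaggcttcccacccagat
Olfr24: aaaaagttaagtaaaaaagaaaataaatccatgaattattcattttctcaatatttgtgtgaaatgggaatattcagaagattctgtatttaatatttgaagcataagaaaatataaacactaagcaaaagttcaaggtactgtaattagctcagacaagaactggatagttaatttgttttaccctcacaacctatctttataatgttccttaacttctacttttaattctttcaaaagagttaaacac
Olfr976: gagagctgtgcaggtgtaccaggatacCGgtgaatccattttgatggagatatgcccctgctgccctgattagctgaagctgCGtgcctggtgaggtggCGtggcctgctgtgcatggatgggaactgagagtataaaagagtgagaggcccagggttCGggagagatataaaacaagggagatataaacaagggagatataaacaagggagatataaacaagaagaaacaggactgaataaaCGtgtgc
The stretches of Olfr160 and Olfr24 hold 0 CpG, that of Olfr59 holds 1 and that of Olfr976 holds 5. The Olfr160 stretch was covered whole by H3K27me3 in both replicates, and the other 3 stretches held no interval of any of the 12 lists, although H3K27me3 lay elsewhere in the windows of Olfr59 in both replicates and of Olfr976 in replicate 2. GC content was 46.4% for Olfr160, 26% for Olfr24, 36.8% for Olfr59 and 48.4% for Olfr976.

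A promoter of 250 bases before and 50 after the RefSeq start was found for 181 of the 213 genes. With a median gene span of 948 bp, many gene models may hold little more than a coding exon. Whether transcription begins at these starts was not tested, so the promoters here are the sequence around the RefSeq start only. These promoters were poor in GC and CpG, with a median GC content of 36.7% and a median of 1 CpG (at most 8), where the promoters of all autosomal protein-coding genes had 56.7% and 14. H3K27me3 touched 102 and 101 of the 181 promoters, 56.4 and 55.8%, beside 8.56 and 9.59% of the 16457 promoters of autosomal protein-coding genes. The Olfr promoters of other autosomes, of which fewer genes had H3K27me3, were as poor, with 35.0% GC and a median of 1 CpG.

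Promoters of olfactory receptors are known for homeodomain sites and for sites of the Ebf (O/E) factors, so both were searched on both strands. The homeodomain core TAATTA was in 42 of 181 member promoters, 23.2%, beside 5.31% of all 27025 RefSeq promoters of the same length and 17.7% of the Olfr promoters of other autosomes. The Ebf palindrome, TCCC and GGGA with any 2 bases between them, was in 0 of 181, beside 0.914% of all promoters and 0.661% of the other Olfr promoters. The TATA box TATAAA was in 69, 38.1%, beside 14.2% of all and 41.9% of the other Olfr promoters. TAATTA and TATAAA are rich in A and T, and the median GC content was 52.7% over all promoters. Of the 137 promoters of genes with H3K27me3 in both replicates, 18.2% held TAATTA and 35.0% held TATAAA. Of the 15 promoters of genes without any interval, 5 held TAATTA and 10 held TATAAA, and their median GC content was 32.0%. Among the printed stretches, TAATTA occurs in Olfr24 and TATAAA, on either strand, in Olfr24, Olfr59 and Olfr976. These matches describe letters only, and a match of TAATTA and a match of TATAAA can share letters.

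Only uniquely aligned reads entered the lists, and receptor genes resemble one another. A run of 38 bases shared with another gene's promoter, the length of a read, was in 33 of the 181 member promoters, 18.2%, beside 9.89% of all autosomal protein-coding promoters. It was in 17.5% of the promoters with H3K27me3 in both replicates and in 2 of the 15 without any interval. Only promoters were compared, so shared sequence in the gene spans and the rest of the windows was not measured. The part of shared sequence in the absence of intervals was not tested.

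H3K27me3 covered parts of the windows rather than all of them. The median share of window base pairs in H3K27me3 intervals was 52.3% in replicate 1 and 53.9% in replicate 2, with quartiles of 21.7 and 80.9% and of 14.6 and 81.8%. The medians were 33.4 and 38.1% on chromosome 9 and 71.9 and 72.6% on chromosome 11. More than 50% of the window was covered in both replicates at 92 genes, 38 on chromosome 9 and 54 on chromosome 11. The gene span itself, without flanks, was touched at 137 and 128 genes (64.3 and 60.1%) and covered whole at 90 and 95 genes (42.3 and 44.6%). Cover and span shares were not computed for all autosomal genes, so these values stand without a background.

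The windows of 7 genes lay whole in H3K27me3 in both replicates. They are Olfr160 and Olfr965 on chromosome 9 and Olfr1394, Olfr10, Olfr1384, Olfr411 and Olfr412 on chromosome 11. All 7 therefore had a share of 100% in each list, and none of them was touched by another set. Olfr160 is the first gene of its cluster and Olfr412 the last of its own, so that full cover reached up to these outer genes.

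The replicates ranked the genes alike but differed gene by gene. Across the 213 genes, which are not independent, the window cover of replicates 1 and 2 had a Pearson correlation of 0.770 and a Spearman correlation of 0.773, given as a description. The median absolute difference was 11.2 percentage points. The largest, 85.5 points, was at Olfr30, which was covered at 85.5% in replicate 1 and 0% in replicate 2, and Olfr229 was covered at 74.4 and 0%. Olfr976 went the other way, with 0% in replicate 1 and 65.8% in replicate 2. The 31 genes touched in 1 replicate only had a median cover of 26.6% in that replicate, and genes touched with a cover under 10% numbered 6 and 3. H3K27me3 at single receptor genes is thus less certain than its frequency over the group.

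**Figure D4:**
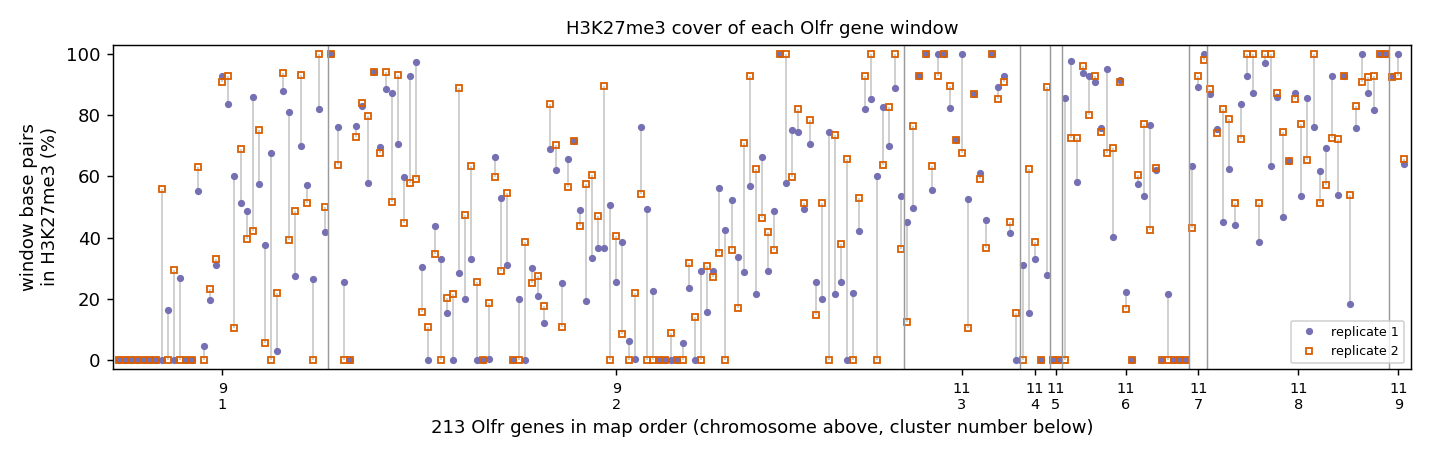
Share of window base pairs in H3K27me3 intervals (percent) for each of the 213 Olfr genes in map order, as circles for replicate 1 and squares for replicate 2 joined by a grey line. Vertical lines separate the 9 clusters. Cluster 1 opens with 7 genes at 0 in both replicates, clusters 7, 8 and 9 have no gene at 0, and Olfr30, the first gene of cluster 6, has the longest line, from 85.5 to 0%.

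The intervals at the receptor genes were of ordinary size. In replicate 1, 279 distinct H3K27me3 intervals touched the windows, with a median length of 4399 bp (799 to 45599 bp), where all autosomal intervals had a median of 4199 bp. In replicate 2, 221 intervals did, with a median of 6399 bp (1199 to 40999 bp), beside 5999 bp on the autosomes. The clusters were thus patterned by many intervals and not spanned by single ones. Around the RefSeq starts of 181 genes, the mean H3K27me3 cover was highest in the first 1 kb after the start, at 58.2 and 55.8%, and within 20 kb on either side it fell no lower than 36.4% in replicate 1 and 42.2% in replicate 2.

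The 213 genes form 9 clusters when genes up to 200 kb apart are joined. Cluster 2 on chromosome 9 (chr9:37711348-40188094, 95 genes from Olfr160 to Olfr986) was the largest, with 36.4 and 39.4% of its base pairs in H3K27me3 and 82 and 76 genes touched. Cluster 1 (chr9:18754692-20336094, 35 genes from Olfr24 to Olfr18) had 23.2 and 25.4% and 24 and 21 genes touched. Over the whole of chromosome 9, 17.1 and 19.7% of base pairs were in H3K27me3.

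On chromosome 11, H3K27me3 covered more than 50% of 5 clusters in both replicates. Cluster 3 (chr11:49112777-49564858, 19 genes from Olfr1396 to Olfr1380) was covered at 54.5 and 55.8%, and every gene of it was touched in at least 1 replicate. Cluster 6 (chr11:58454915-58842042, 21 genes from Olfr30 to Olfr311) was covered at 51.3 and 51.0%. Cluster 8 (chr11:73350859-74365609, 30 genes from Olfr20 to Olfr412) was covered at 55.0 and 63.4%, and all 30 genes were touched in both replicates. The small clusters 7 (chr11:59570782-59614225, Olfr222, Olfr223 and Olfr225) and 9 (chr11:87888959-87915003, Olfr462, Olfr463 and Olfr464) had the densest cover, at 93.1 and 93.0% and at 84.6 and 83.1%. The chromosome as a whole was covered at 18.0 and 20.7%.

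The remaining clusters of chromosome 11 were less covered. Cluster 4 (chr11:50969020-51049050, 5 genes from Olfr1378 to Olfr1375) was covered at 19.0 and 36.05%, with 4 and 3 genes touched. Cluster 5 (chr11:52144593-52213987), the pair Olfr1373 and Olfr1371, was covered at 2.59 and 0% and neither gene was touched by any set. An H3K4me3, an H3K9ac and an H3K27ac interval lay between these 2 genes in each replicate, outside both windows.

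Within the clusters, H3K27me3 was denser on the receptor genes than between them in most clusters. The sequence between them includes genes of other families and the stretches without H3K27me3 around some of those. In cluster 8 it covered 85.3 and 91.6% of the gene spans and 52.9 and 61.5% of the sequence between them. In cluster 6 the values were 72.6 and 67.2% on genes and 49.0 and 49.3% between, and in cluster 1 they were 44.7 and 36.9% on genes and 21.6 and 24.5% between. Cluster 2 differed least among the 5 clusters with over 10 genes, with 40.5 and 45.6% on genes and 36.1 and 38.9% between. In cluster 4, replicate 1 had less on genes (16.7%) than between (19.1%), and in cluster 9, replicate 2 did (56.1 and 86.5%). Cluster 7 was nearly equal in replicate 2 (93.1% on genes and 93.0% between), and the gene spans of cluster 5 held no H3K27me3.

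The 21 genes without any interval stood in 12 runs. The longest was the outer end of cluster 1, the 7 neighbours Olfr24, Olfr828, Olfr829, Olfr830, Olfr832, Olfr834 and Olfr835 (chr9:18754692-19036060), where the merged lists of all sets held 3 intervals, all outside the 7 windows. Olfr1373 and Olfr1371, the whole of cluster 5, had 2 such intervals between them, and Olfr938 and Olfr27 in cluster 2 had 1. Olfr846 and Olfr847 made up a further run of 2 genes, in a stretch of 53.2 kb without an interval of any of the 12 lists. The other 8 were single genes, Olfr876, Olfr901, Olfr907 and Olfr944 on chromosome 9 and Olfr54, Olfr320, Olfr315 and Olfr313 on chromosome 11, in such stretches of 16.8 to 37.4 kb.

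Olfr149 in cluster 2 (chr9:39701832-39702767) was the only one of the 213 genes with H3K4me3, H3K9ac and H3K27ac intervals on the gene itself in both replicates. An H3K4me3 interval lay over its low-coordinate end in replicate 1 (chr9:39701096-39702176) and in replicate 2 (chr9:39701087-39702238). H3K9ac intervals of 394 and 381 bp and H3K27ac intervals of 458 and 440 bp overlapped the same end, and ATAC-seq intervals lay 303 and 279 bp outside the gene. The nearest gene that is not a receptor, AW551984, was 97058 bp away. H3K27me3 covered 48.8 and 35.98% of the window and 0% of the gene, and the H3K4me3 interval stood in a gap of 5601 bp in replicate 1 and 7001 bp in replicate 2 between H3K27me3 intervals.

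Olfr59 in cluster 8 (chr11:74283736-74289646) had H3K4me3 intervals of 743 and 585 bp inside the gene, 40 and 119 bp from its start, directly downstream of the stretch printed above. H3K27ac was called there in replicate 2 only, with 321 bp, and H3K9ac and ATAC-seq in neither replicate. H3K27me3 covered 87.1 and 92.5% of the window and overlapped the H3K4me3 interval by 518 and 439 bp. The nearest H3K27me3 interval upstream ended 976 and 1055 bp before the H3K4me3 interval, which leaves the printed stretch uncovered. Olfr59 and Olfr149 thus differed in whether both marks were called over the same base pairs.

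The other receptor genes with H3K4me3 in both replicates stood at cluster ends beside a gene of another family. At Olfr986, the last gene of cluster 2, the H3K4me3 intervals lay 3416 and 3417 bp from the gene, and H3K9ac, H3K27ac and ATAC-seq intervals were also called in both replicates. All of these overlapped the end of Zfp202, a zinc finger gene. H3K27me3 covered 53.7 and 36.3% of the Olfr986 window. At Olfr311, the last gene of cluster 6, H3K4me3 lay 4671 and 4647 bp away and overlapped the end of Gm12258, as did ATAC-seq in both replicates. H3K27me3 was absent from the Olfr311 window, and the stretch without H3K27me3 around this H3K4me3 interval was 223401 bp in replicate 1 and 287801 bp in replicate 2.

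H3K36me2 touched 3 receptor genes, and Olfr312 and Olfr1393 are named here after their values were seen. Olfr312, next to Olfr311, had H3K36me2 over the gene in both replicates (6199 and 4599 bp) and no H3K27me3. Olfr1393 in cluster 3, the receptor gene with the longest span (28487 bp), was touched by the same 7999 bp interval in both replicates, which also overlapped Mgat1 at a distance of 846 bp. H3K27me3 covered 55.5 and 63.3% of the Olfr1393 window. At Olfr311, H3K36me2 was called in replicate 2 only, 2959 bp from the gene.

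Of the 12 protein-coding genes of other families inside the clusters, listed after their values were seen, 4 carried the active sets. Zfp317 in cluster 1, Vwa5a in cluster 2, and Zfp62 and Mgat1, an N-glycan branching enzyme, in cluster 3 had H3K4me3, H3K9ac, H3K27ac and H3K36me2 in both replicates. ATAC-seq touched all 4, Vwa5a in replicate 2 only, and H3K27me3 touched the window of Zfp317 in replicate 2. The stretch without H3K27me3 around them was 54.2 and 51.4 kb at Zfp317, 40.2 and 51.4 kb at Vwa5a, and 86.4 and 85.6 kb around Zfp62 and Mgat1 together. The other 8 (AW551984, Tmem225, Btnl9, 2210407C18Rik, Trim58, Fam183b, Zfp735 and Zfp616) had H3K27me3, Fam183b in replicate 1 only, and none of the other 5 sets. Most of these 12 genes thus had H3K27me3, as the receptors around them did, and the 4 genes with active marks stood in stretches without it. Such stretches were not particular to genes with active marks. In cluster 1, stretches without an interval of any set reached 283.6 kb at the run from Olfr24 to Olfr835 and 53.2 kb at Olfr846 and Olfr847. In cluster 2, the stretch at Olfr938 and Olfr27 reached 73.2 kb. Of all autosomal protein-coding genes, 21.3% had H3K27me3 in both replicates and 55.3% had H3K4me3 in both. The other protein-coding genes of chromosomes 9 and 11 were touched by H3K27me3 at a mean of 26.8%. The 12 genes are few, and their counts were not tested against these shares.

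The borders were examined at both ends of the 8 clusters with at least 3 genes, 16 borders in all, over 50 kb on each side (for clusters 7 and 9, the inside is the whole cluster of 43.4 and 26.0 kb). The median H3K27me3 cover inside was 72.5 and 79.5%, and outside it was 41.8 and 33.8%. The inside was higher at 11 borders in replicate 1 and 13 in replicate 2, and at 11 in both. The outside was higher in both replicates at 2 borders, beside Olfr1375 (12.3 and 27.2% inside, 48.5 and 55.2% outside) and beside Olfr20 (66.3 and 79.2% inside, 71.7 and 88.4% outside). H3K27me3 intervals lay within 50 kb outside at 15 and 13 borders. The median distance from a border to the first H3K27me3 outside was 0 kb in replicate 1 and 8.06 kb in replicate 2.

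The drop at the border differed widely between clusters. At the Olfr412 end of cluster 8, H3K27me3 fell from 88.4 and 86.4% inside to 12.0 and 13.2% outside, while H3K36me2 was 0% inside and 42.0 and 41.6% outside. At the Olfr222 end of cluster 7 it fell from 93.1 and 93.0% to 1.96 and 0%, and H3K36me2 was 20.8 and 16.0% outside. At the Olfr160 end of cluster 2 the values were 78.5 and 82.5% inside and 44.7% in both replicates outside, with no H3K36me2 on either side. At the Olfr24 end of cluster 1, H3K27me3 was low on both sides, with 3.20 and 8.40% inside and 11.6 and 0% outside. At the Olfr311 end of cluster 6 there was none on either side, and H3K36me2 covered 12.4 and 9.20% inside and 62.9 and 57.3% outside.

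H3K36me2 and each active set lay within 50 kb outside a minority of the 16 borders, and inside at 1 at most. H3K36me2 had a mean cover of 0.775 and 0.575% inside and 11.6 and 11.7% outside, with a median of 0% on both sides. The whole of chromosome 9 had 14.1 and 14.2% in H3K36me2, and chromosome 11 had 21.6 and 21.4%. An H3K36me2 interval lay inside at 1 of 16 borders (Olfr311) and outside at 7. H3K4me3 intervals lay inside at 0 of 16 borders and outside at 6, in each replicate. H3K9ac lay outside at 7 borders and ATAC-seq at 4 in each replicate, with 0 inside for both sets. H3K27ac lay outside at 6 borders in each replicate and inside at 1 border in replicate 2.

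In bins of 10 kb, the mean H3K27me3 cover was 62.0 and 59.0% in the last bin inside and 42.4 and 35.6% in the first bin outside. Inside it varied widely, from 69.4 and 72.7% at 30 to 40 kb to 34.9 and 41.4% at 50 to 60 kb. The latter is close to the 37.1 and 34.2% at 30 to 40 kb outside. Farther outside, it was 1.47 and 2.0% at 110 to 120 kb and 11.2 and 6.78% at 140 to 150 kb. H3K36me2 was 3.26 and 3.79% in the first bin outside and 52.5 and 53.7% at 130 to 140 kb.

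**Figure D5:**
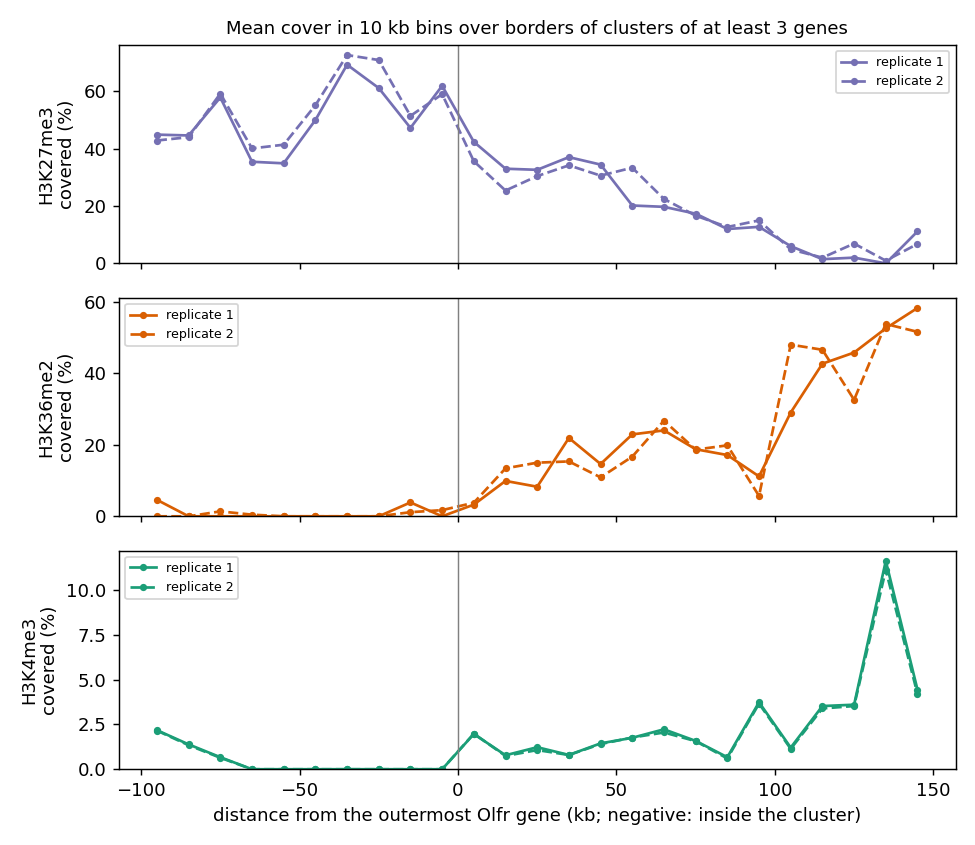
Mean share of base pairs (percent, separate axes from 0) in H3K27me3 (top), H3K36me2 (middle) and H3K4me3 (bottom) in bins of 10 kb against the distance from the outermost Olfr gene in kb, negative inside the cluster, over up to 16 borders. Solid lines are replicate 1 and dashed lines replicate 2. H3K27me3 varies inside, with 34.9 and 41.4% at 50 to 60 kb and 62.0 and 59.0% in the last inside bin. Outside, it stands at 1.47 and 2.0% at 110 to 120 kb and at 11.2 and 6.78% at 140 to 150 kb. H3K36me2 is higher outside.

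The nearest gene of another family stood 1.95 to 79.9 kb outside the 16 borders, with a median of 14.3 kb. Among these genes were on chromosome 9 Muc16, Zfp560, Panx3 and Zfp202, and on chromosome 11 Ifi47, 1700024J04Rik, Zfp354a, Lypd9, Gm12258, Nlrp3, Mprip, Spata22, Rap1gap2, Epx and Dynll2. H3K27me3 touched 10 of the 16 in both replicates, H3K9ac, H3K27ac and H3K36me2 8 each, H3K4me3 7 and ATAC-seq 6. In the same order, the sets touched 21.3, 54, 55.2, 51.8, 55.3 and 50.8% of all autosomal genes in both replicates, so the counts of the active sets were near or below the background. The first interval of H3K4me3, H3K9ac, H3K27ac or ATAC-seq outside a border was at a median distance of 52.9 kb in the range from 3.42 to 537 kb, and lay within 50 kb at 7 borders. The nearest was beside Olfr986, at Zfp202, and the farthest was beside Olfr1378 in cluster 4.

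The machinery around the receptors was described by a list of 20 genes of olfactory receptor function and choice, which are spread over other chromosomes apart from Ebf1 on chromosome 11. H3K27me3 touched 7 of 20 in both replicates, H3K4me3 10, H3K9ac and H3K27ac 11 each, and H3K36me2 and ATAC-seq 10 each. Of all autosomal genes, 21.3, 55.3, 54, 55.2, 51.8 and 50.8% were touched in both replicates by H3K27me3, H3K4me3, H3K9ac, H3K27ac, H3K36me2 and ATAC-seq, so the counts of the 5 sets other than H3K27me3 were near the background. All 5 other sets without H3K27me3 were found in both replicates at Adcy3 (the adenylyl cyclase of odorant signalling), Ric8b (a G protein exchange factor), Reep1, Ldb1, Atf5, Kdm1a (a histone demethylase) and Lbr (the lamin B receptor). Cnga4 had H3K4me3, H3K9ac, H3K27ac and ATAC-seq without H3K36me2, Cbx5 had H3K9ac, H3K27ac and H3K36me2 without H3K4me3, and Gnal, the olfactory G protein, was touched by all 6 sets.

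H3K27me3 without any other set was found at Ano2, Stoml3, Rtp1 (replicate 2 only) and Rtp2, of which Rtp1 and Rtp2 help receptors to reach the cell surface. The transcription factor Lhx2 had H3K27me3 with H3K4me3 and H3K9ac, and Ebf1 had H3K27me3 in both replicates with H3K4me3 in replicate 2. Cngb1 had H3K27me3 with H3K27ac, H3K36me2 and ATAC-seq in both replicates. Omp (olfactory marker protein) and Emx2 had no interval of any set. Cnga2 had none as well, and it is on chromosome X, where the methods say that reads were discarded although the lists hold intervals there, and the part of that step was not tested. Of the 2 reference Polycomb targets on chromosome 11, Hoxb1 had H3K27me3 only, and Hoxb13 had all 5 other sets and no H3K27me3, which goes against its place on that list.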

How the data were processed

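EL4 chromatin was measured by ChIP-seq for 5 histone marks and by ATAC-seq, with 2 replicates per set. Per the submitters' processing notes and the methods, the authors aligned reads with STAR 2.5 to GRCm38, kept unique alignments, treated duplicates with Picard, and used MACS2 to call H3K4me3, H3K9ac, H3K27ac and ATAC-seq and Epic to call H3K27me3 and H3K36me2, with the input as the ChIP-seq control. The authors deposited 1 list per replicate of interval positions in base pairs. The lists carry no score, count or other value, so the depth is unknown. H3K27me3 and H3K36me2 were called in 200 bp bins, and their intervals stop 1 bp short of a bin edge. The input and both RNA-seq samples were not used here.

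Genes came from the RefSeq annotation of GRCm38.p6, which holds no strand in the table used. Strand and promoters came from the RefSeq promoter table. Starts were counted from 1. Windows were gene spans with 5 kb on each side, and touching meant an overlap of at least 1 bp. Cover is the share of base pairs in intervals. Shares were computed for each replicate and given as mean ± SD, and classes used the merged lists of both replicates. Clusters joined genes up to 200 kb apart. The exact permutation test over libraries was two-sided. Because nothing says that replicates came from separate cultures, p-values measure the spread between libraries only, which may be technical. Intervals of shares are exact binomial and cover counting error only.

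The members and lists were chosen with earlier results of these data known. Named genes were receptor genes touched in both replicates by H3K4me3, H3K9ac, H3K27ac or ATAC-seq, the 5 with the most H3K27me3 cover (ties by position, where Olfr411 and Olfr412 tie with the first 5), the outermost genes of clusters with at least 3 members and their outer neighbours, the olfactory list and the reference genes. Some genes of these lists are not reported here. Other genes were named after their values were seen. Alternatives were flanks of 0, 1 and 20 kb, 50% of the shorter interval as the overlap, intervals of at least 1 kb, merged or intersected replicates, each replicate left out, all gene types, other border widths and other cluster rules.

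Counting was checked against bedtools 2.31.1 in 2556 pairs of member and list, of which 0 differed, and tested on simulated data, where 50 of 50 planted overlaps were found. Scripts ran in Python 3.11.15 and used pandas 2.3.3, scipy 1.17.1, numpy 2.4.6 and, for figures, matplotlib 3.10.9.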

Additional observations from a re-analysis of the deposited data

How the results depend on the processing

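Of 98 values under alternative settings, 55 stayed within the spread of the reported value, 43 moved and 0 turned direction. Most of these values are shares of genes, which cannot fall below 0 and so have no direction to turn. The H3K36me2 border difference, at 0 in the main setting, has none either. The shares of all genes were not recomputed with other flanks, overlaps or interval lengths. With no flank, a flank of 1 kb and a flank of 20 kb, the share of receptor genes touched was 62.2, 66.2 and 92.7% for H3K27me3, 0.939, 0.939 and 6.57% for H3K4me3, 0.469, 0.469 and 5.63% for H3K9ac, 0.704, 0.939 and 6.34% for H3K27ac, and 0, 0.469 and 4.23% for ATAC-seq, and H3K36me2 was at 4.23% with 20 kb. H3K27me3 alone was then at 70.9 and 75.1% of genes with no flank and 1 kb, and no interval at 27.2, 23.0 and 3.29%. Where 50% of the shorter interval had to overlap, H3K27me3 touched 76.3%, H3K4me3 1.41% and ATAC-seq 0.939%, and 15.0% of genes had no interval. With intervals of at least 1 kb, H3K4me3 touched 1.41%, H3K9ac and H3K27ac 0.469% each and ATAC-seq 0%. Merged replicates gave 89.2% for H3K27me3 and 2.35% for H3K27ac, and base pairs in both replicates gave 71.4 and 0.939%, with H3K27me3 alone at 69.5% and no interval at 27.7%. With all Olfr gene types, H3K4me3, H3K9ac and ATAC-seq touched 1.77, 0.707 and 1.06%. Leaving out a replicate gave 77.5 to 82.6% for H3K27me3 alone and 14.6 to 19.7% for no interval, the higher absence without replicate 1.

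At the borders, the median difference in H3K27me3 cover was 32.5 percentage points, 14.3 over 20 kb and 21.5 with clusters broken at every other gene (30 borders), and that of H3K36me2 was 0, and -6.07 over 100 kb. With the replicate number as a block, the difference between H3K27me3 and H3K36me2 was again 80.8 points, with an exact sign-flip p of 0.5, the smallest 2 pairs allow. The numbers of different assays mark no shared sample. The causes of these shifts were not tested. Without scores or depth, a missing interval cannot be told apart from weak signal, and 31 of the 190 genes with H3K27me3 had it in 1 replicate only.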

Other observations

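The 69 Olfr pseudogenes of chromosomes 9 and 11 were not among the 213 genes. H3K27me3 touched 46 of them in replicate 1 and 49 in replicate 2 (68.8% ± 3.07, SD, n = 2), and 42 in both. H3K4me3 touched 1 pseudogene in each replicate, H3K36me2 touched 1 in each, and H3K9ac and ATAC-seq touched 0. No interval of any set was found at 15 pseudogenes, 21.7%, where 21 of the protein-coding receptor genes, 9.86%, had none. The difference between the shares was not tested.

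Among other autosomes, the Olfr genes of chromosomes 4, 6 and 19 were touched by H3K27me3 at means of 87.5, 83.9 and 82.5%. On chromosomes 2 and 7, 79.8 and 80.8% of the Olfr genes had no interval of any of the 6 sets, where 11.5% of those on chromosome 9 and 7.23% of those on chromosome 11 had none.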
